A study of Brassica rapa subsp. pekinensis with 6 samples.

Results

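Abscisic acid is a plant hormone of drought, seed dormancy and leaf ageing, and its level in a leaf is set by the balance of synthesis, breakdown and storage as a glucose ester. The genes described here encode the enzymes of that balance in the leaf of Chinese cabbage, Brassica rapa subsp. pekinensis. They were the rows of the authors' deposited table whose best protein hit was zeaxanthin epoxidase, 9-cis-epoxycarotenoid dioxygenase, xanthoxin dehydrogenase, abscisic-aldehyde oxidase, abscisate beta-glucosidase or abscisic acid 8'-hydroxylase. By these names 16 of 13225 genes were chosen. The rule used names and not values, but it was set with earlier results of these data known. Every gene of the table had also passed the authors' test. None of the 16 had abscisic-aldehyde oxidase as its best hit.

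The leaves came from doubled haploid plants, whose haploid genome was brought back to a diploid one, and from autotetraploid plants, which carry further whole copies of the same genome. Both kinds of plant were made from the doubled haploid line FT and raised in the same conditions, so every group shares the genotype of 1 line. Mature leaves of the main stem, from beneath its lowest branch, were taken when the plants bolted, and each group had 3 libraries described as biological replicates. The table gives each gene 1 mean of normalised read counts in each group, with no spread, and holds no gene with an adjusted p of 0.05 or more. In bulk leaf RNA, fewer cells of a type and less RNA per cell cannot be told apart, and counts normalised between libraries show levels relative to the other genes.

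In the pathway, zeaxanthin epoxidase makes the xanthophylls that serve as precursors in the plastid. 9-cis-epoxycarotenoid dioxygenase (NCED) cleaves them to xanthoxin, the step that is rate-limiting in stressed leaves of Arabidopsis, where NCED3 is the main form. Xanthoxin dehydrogenase (ABA2) and abscisic-aldehyde oxidase complete synthesis in the cytosol. The 8'-hydroxylases, cytochromes P450 of the CYP707A family, start the main route of breakdown, and in Arabidopsis beta-glucosidase 18 (BGLU18) frees the hormone from its glucose ester.

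By RNA level, the listed genes for the cleavage enzyme NCED3 and most of those for breakdown enzymes were lower in autotetraploid leaves. Amounts of the enzymes were not measured. BGLU18, an enzyme that frees stored hormone, was higher, though at low counts. All 3 listed NCED3 genes and 5 of 6 listed hydroxylase genes fell. Both listed BGLU18 genes rose. The closely matched gene for zeaxanthin epoxidase (ZEP), at the head of the route, rose by 1.17-fold, and the closely matched ABA2 gene fell. The other members, 2 ZEP hits and 1 ABA2 hit, rose but were weak matches that may not be these enzymes. In the authors' test 37.8% of an estimated 34980 genes passed at an adjusted p under 0.05, and since the table lists the passing genes alone, that the 16 genes passed says nothing about them. Of the 16, 7 were higher and 9 lower, where 18.9% of the tested genes were called higher and 18.9% lower, with 6614 and 6611 genes in all. Their median log2 fold change was -1.29 (autotetraploid over doubled haploid), beside 0.16 for all listed genes. A change of at least 2-fold was seen in 4 higher and 9 lower genes of the 16, while 16.6% of listed genes were that much higher and 23.0% that much lower.

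**Figure D1:**
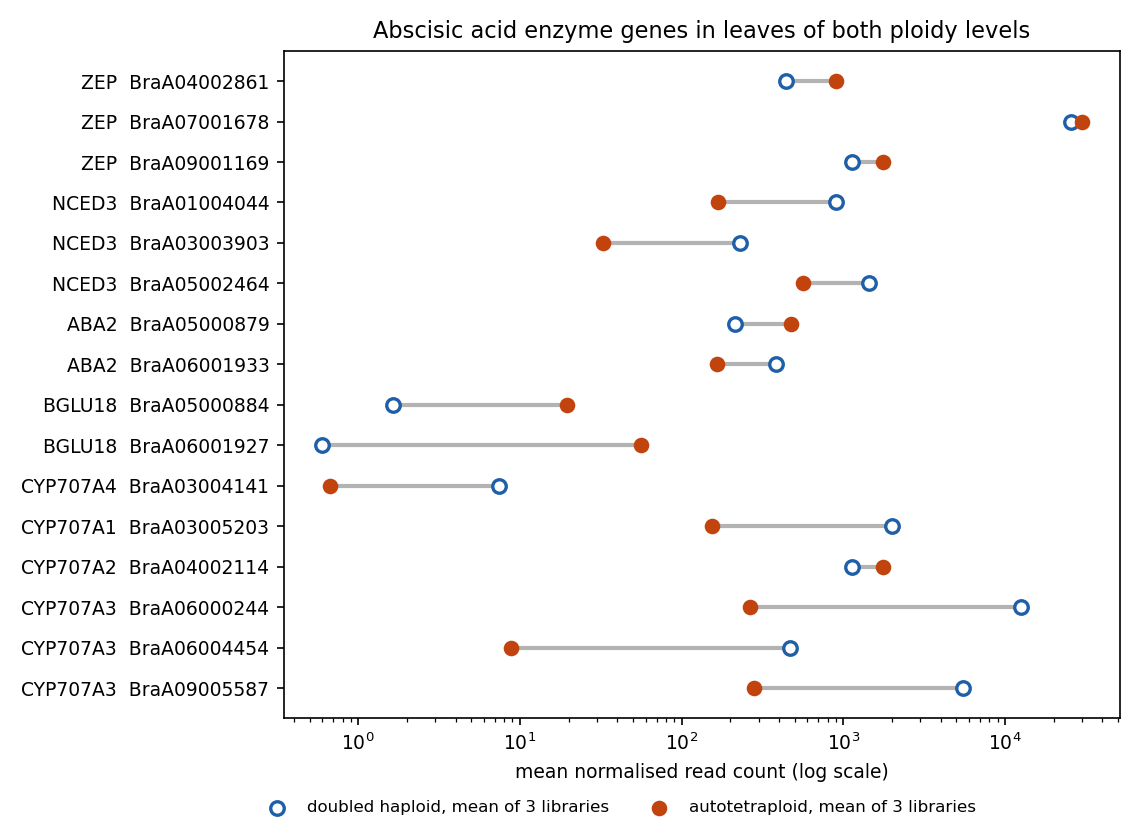
Mean normalised read count (log scale) of the 16 abscisic acid enzyme genes in doubled haploid (open circles) and autotetraploid leaves (filled circles), each the authors' mean of 3 libraries, ordered by step of the pathway. The 3 NCED3 genes and 5 of the 6 CYP707A genes lie lower in autotetraploid leaves, and both BGLU18 genes lie higher, as do the 3 ZEP hits, of which 2 are weak matches.

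Zeaxanthin epoxidase changed little where the match was strong. The gene with the Arabidopsis enzyme as its best hit (evm.TU.BraA07001678) had means of 29813 in autotetraploid and of 25479 in doubled haploid leaves, as the authors' deposited table gives them. Its rise of 1.17-fold, or 0.23 on the log2 scale, had an adjusted p of 0.000474 in the authors' deposited table. The other genes had weaker matches, and whether they encode the enzyme was not established here. For evm.TU.BraA09001169, whose best hit was the Nicotiana enzyme at an E-value of 4.73e-07, the authors' deposited table gave 1771 and 1125, with 0.65 as the log2 fold change and 2.58e-16 as the adjusted p. For evm.TU.BraA04002861, matched to the Oncidium enzyme at an E-value of 6.12e-23, it gave 901 and 440, a log2 fold change of 1.04 (adjusted p = 0.0289 in the authors' deposited table). This adjusted p was large for such a change. Of the 4482 other listed genes whose higher mean lay within 2-fold of its own, 975 changed at least as much in either direction, and 2 of those had an adjusted p as large. The 3 doubled haploid libraries of this gene, worked out below, held 439, 531 and 349 normalised reads. Its autotetraploid mean could be split in 9 ways, so the spread in that group is not known.

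All 3 listed genes matching NCED3 fell. The gene evm.TU.BraA03003903 had means of 32.6 in autotetraploid and of 231 in doubled haploid leaves, from the authors' deposited table (log2 fold change -2.82, adjusted p = 6.71e-44). The authors' deposited table gave evm.TU.BraA01004044 means of 168 and 895 in the same order, with a log2 fold change of -2.42 and an adjusted p of 6.72e-86. For evm.TU.BraA05002464 the authors' deposited table held 561 and 1433 (log2 fold change -1.35, adjusted p = 5.2e-55). The falls thus ran from 2.55-fold to 7.07-fold. Summed over the 3 listed genes the normalised reads were 3.36-fold lower in autotetraploid leaves, at 762 against 2560. Any NCED copy that did not pass the authors' test is not in this sum.

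Xanthoxin dehydrogenase hits went both ways. The closer match (evm.TU.BraA06001933, E-value 3.86e-157) fell from 384 in doubled haploid to 165 in autotetraploid leaves (log2 fold change -1.22, adjusted p = 7.3e-20, both from the authors' deposited table). The gene that rose (evm.TU.BraA05000879) had ABA2 as its best hit at an E-value of 2.64e-06, too weak to take it for that enzyme. With means of 473 and 215, its log2 fold change was 1.14 and its adjusted p 1.71e-20 in the authors' deposited table. Its doubled haploid libraries held 209, 215 and 221 normalised reads, a narrow spread. No aldehyde oxidase of abscisic acid synthesis was listed.

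Both listed BGLU18 genes rose from a few reads in doubled haploid leaves. For evm.TU.BraA06001927 the authors' deposited table gave 55.7 (autotetraploid) and 0.597 (doubled haploid), with 6.54 as the log2 fold change and an adjusted p of 1.12e-23. Its 2 reads in the doubled haploid group gave the 93.3-fold rise a 95% interval, for counting error alone, from 23.6 to 721 (exact binomial). Of 1844 other listed genes with a higher mean within 2-fold of its own, 5 rose as far or further. For evm.TU.BraA05000884 the authors' deposited table gave 19.6 and 1.63 (log2 fold change 3.58, adjusted p = 6.42e-06). The ratio of these means rested on 5 reads in the doubled haploid group, with a counting interval of 4.90 to 38.7. Both genes stayed at low counts, under 100 normalised reads, in autotetraploid leaves.

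The identifiers of the BGLU18 and ABA2 hits lay near each other on 2 chromosome codes. On A05, BraA05000879 (ABA2 hit) and BraA05000884 (BGLU18) are 5 numbers apart and both rose. On A06, BraA06001927 (BGLU18) and BraA06001933 (ABA2) are 6 numbers apart, and the former rose while the latter fell. No other listed gene had an identifier between either pair. Positions on a genome were not used here.

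The 8'-hydroxylases held the largest falls. The 3 genes matching CYP707A3 fell by 19.7-fold to 53.1-fold. For evm.TU.BraA06000244 the authors' deposited table gave 263 (autotetraploid) and 12625 (doubled haploid), a change of -5.58 on the log2 scale with a p-value deposited as 0. Of the 455 other listed genes with a higher mean within 2-fold of its own, 0 fell as far, and their median absolute log2 fold change was 0.98. For evm.TU.BraA09005587 the means were 280 and 5524 in the same order in the authors' deposited table (log2 fold change -4.30, p-value deposited as 0), and 12 of 1086 listed genes of like level fell as far or further. For evm.TU.BraA06004454 the authors' deposited table held 8.82 and 469 (log2 fold change -5.73, adjusted p = 1.11e-129), and 9 of 4708 fell as far. Copies with the same best hit may share reads, and whether these do was not examined.

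The gene matching CYP707A1 (evm.TU.BraA03005203) fell 13.0-fold, from 1995 to 153, with a log2 fold change of -3.70 and an adjusted p of 1.64e-307 in the authors' deposited table. The gene matching CYP707A4 (evm.TU.BraA03004141) was near the limit of detection, with means of 7.46 in doubled haploid and 0.672 in autotetraploid leaves (from the authors' deposited table, adjusted p = 0.0183). With 2 reads in the lower group, its fall of 11.1-fold had a counting interval of 2.67 to 94.7. CYP707A2, known in Arabidopsis from seeds, was the exception. Its gene (evm.TU.BraA04002114) rose from 1131 to 1761, with 0.64 as the log2 fold change and an adjusted p of 3.68e-10 in the authors' deposited table. Over the 6 listed hydroxylase genes together, normalised reads were 8.82-fold lower in autotetraploid leaves, at 2467 against 21751. The 3 CYP707A3 genes gave 85.6% of these reads in doubled haploid and 22.4% in autotetraploid leaves, and CYP707A2 gave 5.20% and 71.4%. These are shares of reads, which also depend on transcript length, and lengths were not available for these identifiers. Hydroxylase copies that did not pass the authors' test are not listed, so the sums and shares may not be those of the whole family.

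**Figure D2:**
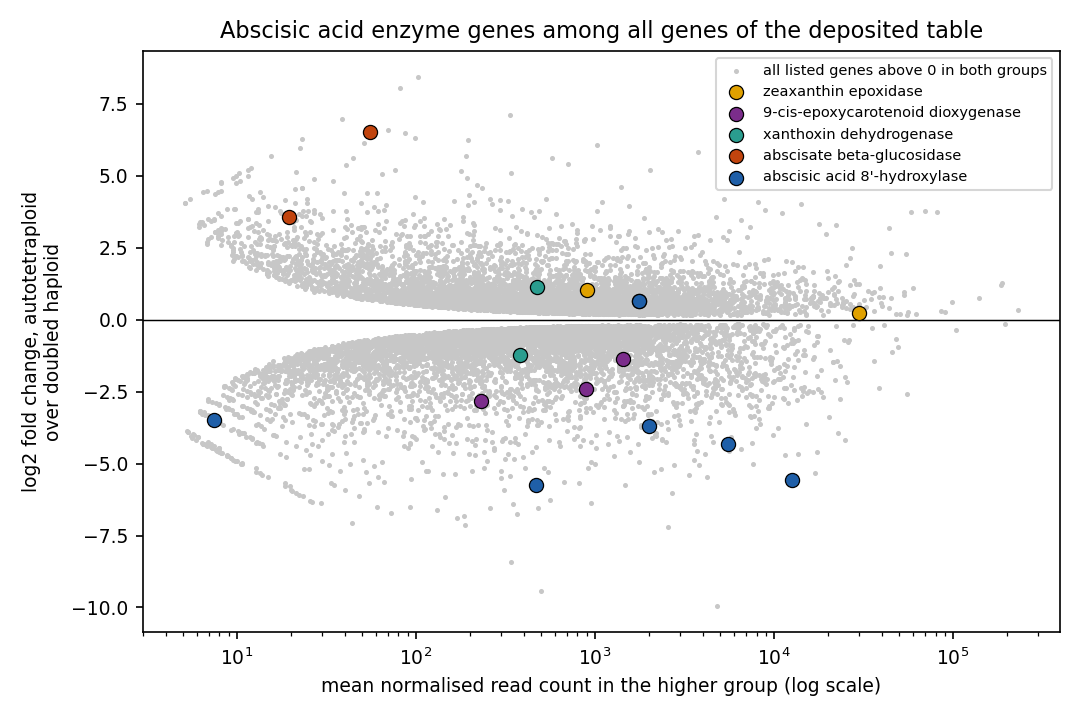
Log2 fold change (autotetraploid over doubled haploid) against the mean normalised read count of the higher group (log scale) for all listed genes above 0 in both groups (grey) and for the 16 abscisic acid enzyme genes (coloured by enzyme). The gap around 0 reflects that the table holds genes with an adjusted p under 0.05, and the hydroxylase gene at a mean of 12625 lies below the other listed genes within 2-fold of its level.

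The spread between libraries could be seen for some of these genes. A group mean adds up the whole reads of each library, scaled by that library's size factor, so the reads can be worked back where a single set of whole numbers gives the mean. This held in both groups for 4 of the 16 genes. Which replicate each of these libraries is remains unknown. For the NCED3 gene evm.TU.BraA03003903 the autotetraploid libraries held 40.5, 28.2 and 29.2 normalised reads (mean 32.6 ± 6.83 SD, n = 3). The doubled haploid libraries held 221, 245 and 226 (231 ± 12.6 SD, n = 3). The highest autotetraploid library thus lay far below the lowest doubled haploid library.

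For BGLU18 on A06 (evm.TU.BraA06001927) the autotetraploid libraries held 45.4, 64.5 and 57.2 normalised reads (55.7 ± 9.63 SD, n = 3). The doubled haploid libraries held 1.79, 0 and 0 (0.597 ± 1.03 SD, n = 3), so both doubled haploid reads came from 1 library. For BGLU18 on A05 (evm.TU.BraA05000884) the libraries held 13.8, 21.2 and 23.8 in autotetraploid leaves (19.6 ± 5.15 SD, n = 3). In doubled haploid leaves they held 1.79, 0.925 and 2.18 (1.63 ± 0.643 SD, n = 3). Every autotetraploid library was above every doubled haploid library for both genes. For CYP707A4 (evm.TU.BraA03004141) the autotetraploid libraries held 0, 2.02 and 0 normalised reads (0.672 ± 1.16 SD, n = 3) and the doubled haploid libraries 6.27, 7.40 and 8.72 (7.46 ± 1.22 SD, n = 3). The groups did not overlap, but its autotetraploid level rests on 2 reads in 1 library.

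**Figure D3:**
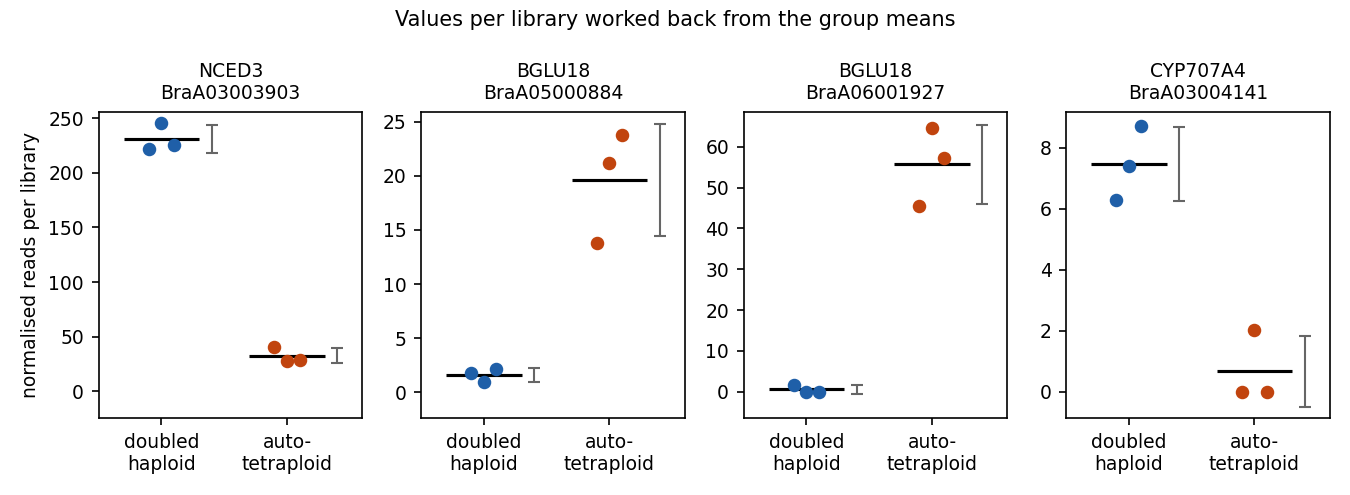
Normalised reads per library (points), mean (line) and SD (grey bar, n = 3) in doubled haploid and autotetraploid leaves for the 4 genes whose reads could be worked back in both groups. In each panel the groups do not overlap, and the lower group of both BGLU18 genes and of CYP707A4 lies at a few reads.

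A lack of overlap was usual among such genes: the groups did not overlap in 99.2% of the 3832 listed genes with values per library, all of which had passed the authors' test on the same libraries. With limma on log2 of the normalised reads plus 1, 4 of these 4 enzyme genes passed at an adjusted p under 0.05, as did 99.9% of the 3832, so this test adds the size and its error rather than a further call. On that scale the NCED3 gene evm.TU.BraA03003903 had a log2 fold change of -2.80 ± 0.18 (SE, limma adjusted p = 2.86e-05). BGLU18 had 5.32 ± 0.42 on A06 (evm.TU.BraA06001927, limma adjusted p = 5.53e-05) and 2.97 ± 0.27 on A05 (evm.TU.BraA05000884, limma adjusted p = 0.000103). CYP707A4 (evm.TU.BraA03004141) had -2.54 ± 0.44 (limma adjusted p = 0.00145). The pseudocount of 1 makes the changes of low genes smaller than the ratios of means, and with a pseudocount of 5 that of CYP707A4 was -1.15.

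For other members the mean left a few possible sets of reads, which bound the libraries. The autotetraploid mean of the CYP707A3 gene evm.TU.BraA06000244 allowed 3 sets. The most even held 286, 255 and 248 normalised reads, and in none was a library above 585, against a doubled haploid mean of 12625. For evm.TU.BraA09005587 the more even of 2 sets held 288, 289 and 261, with no library above 382 in either. For CYP707A1 (evm.TU.BraA03005203) the more even of 2 sets held 142, 150 and 167, with none above 291. In the third CYP707A3 gene (evm.TU.BraA06004454) the autotetraploid libraries held 11.9, 7.06 and 7.56. Its doubled haploid mean allowed 2 sets, of which the more even held 455, 518 and 433. In the other set the lowest library still lay above all 3 autotetraploid libraries.

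The ABA2 gene evm.TU.BraA06001933 was also apart in every set. Its doubled haploid libraries held 389, 414 and 348 normalised reads, and no autotetraploid library exceeded 314 in any of 3 sets. For the NCED3 gene evm.TU.BraA01004044 this depended on the set. With the most even sets the libraries held 171, 178 and 153 in autotetraploid leaves and 961, 822 and 904 in doubled haploid leaves, without overlap. A less even set of the doubled haploid mean put 1 library at 62.7, below all 3 of these autotetraploid values.

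The other listed genes of the pathway, 80 in all, were described by role. Of these, 36 were higher and 44 lower, with a median log2 fold change of -0.34. Among all listed genes 6614 were higher and 6611 lower, with a median of 0.16. Whether the 80 genes, or those of any role, differ from all listed genes was not tested. Genes of the carotenoid precursor list were mostly higher, at 12 of 14 with a median of 0.83. The list was fixed by name and took in lycopene epsilon cyclase and violaxanthin de-epoxidase, whose genes rose. It is thus not a count of enzymes leading to abscisic acid. Phytoene synthase, which opens the carotenoid route (evm.TU.BraA10000246), rose from 691 to 1723 (log2 fold change 1.32, adjusted p = 1.46e-57, from the authors' deposited table). Both genes that fell encode beta-carotene 3-hydroxylase 1, an enzyme that makes zeaxanthin, and evm.TU.BraA03005620 went from 2910 to 585 (log2 fold change -2.31, adjusted p = 3.77e-187, from the authors' deposited table). Molybdenum cofactor genes, which serve aldehyde oxidases, were split 2 and 2. Molybdopterin synthase (evm.TU.BraA04003153) had a log2 fold change of 1.85 with an adjusted p of 1.29e-06 in the authors' deposited table. A gene with a distant match to molybdenum cofactor sulfurase (evm.TU.BraA08001494) had -0.90 with an adjusted p of 6.21e-24 in the authors' deposited table.

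Among other dioxygenases and aldehyde oxidases 2 rose and 6 fell, a group that took in 1 extradiol dioxygenase by its name. The aldehyde oxidase gene matching AAO1 (evm.TU.BraA02001365) went up from 99.6 to 314 by the authors' deposited table, where the carotenoid cleavage dioxygenase 4 gene (evm.TU.BraA01001136) fell from 103946 to 81944. Of 6 genes tied to the glucose ester by name or close family, 1 rose and 5 fell. Among those that fell was the gene matching beta-glucosidase 33 (evm.TU.BraA04002314), against the direction of the BGLU18 genes. It went from 287 to 153 (log2 fold change -0.91, adjusted p = 0.0139, from the authors' deposited table) and was picked out after its values were seen. The rise was in glucosyltransferase 71B7 (evm.TU.BraA01002734), with a log2 fold change of 1.20, and 71B5 (evm.TU.BraA01003380) had -0.88 in the authors' deposited table. The gene for 71C5, which glucosylates abscisic acid in Arabidopsis (evm.TU.BraA10002599), fell from 240 to 126 (log2 fold change -0.94, adjusted p = 4.2e-09, from the authors' deposited table). It was named after its values were seen. Of 6 transporter genes 5 fell, among them ABCG22 (evm.TU.BraA02000218) at -0.77, while NPF4.6, an importer of the hormone (evm.TU.BraA07004427), had a log2 fold change of 0.66 in the authors' deposited table.

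Receptors and phosphatases moved in opposite directions for the most part. Abscisic acid receptors bind the hormone and then inhibit the type 2C protein phosphatases, which otherwise hold the SnRK2 kinases inactive. Of 14 receptor genes 10 rose and 4 fell, with a median log2 fold change of 0.90. In the authors' deposited table PYL8 (evm.TU.BraA03001542) rose from 308 to 997 and PYL9 (evm.TU.BraA07002531) fell from 678 to 192. Of 6 phosphatase genes 5 fell and 1 rose, with a median of -2.21. By the authors' deposited table, phosphatase 37 (evm.TU.BraA05002763) fell from 10519 to 2507 and phosphatase 56, known as ABI1 (evm.TU.BraA08001993), rose from 1121 to 2576. SnRK2 kinase genes were split 2 and 2, in a family taken by name and not by response to the hormone. The gene with SRK2J as its best hit (evm.TU.BraA04001680, E-value 4.00e-19) had a log2 fold change of 2.24 in the authors' deposited table. That match is weak, and whether the gene encodes this kinase was not established. SRK2C (evm.TU.BraA07002743) had -0.60 in the authors' deposited table. The other listed kinase genes, named after their values were seen, matched SRK2B (evm.TU.BraA01002387) and SRK2E (evm.TU.BraA03006253). Their log2 fold changes were 0.47 and -0.29 in the authors' deposited table.

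Of 9 transcription factor genes of the response 6 fell, including G-box-binding factor 3 (evm.TU.BraA05004322), which went from 561 to 174 by the authors' deposited table. The factor gene with the smallest adjusted p among the 3 that rose, matching ABI5-like protein 6 (evm.TU.BraA01000449), had a log2 fold change of 0.47 in the authors' deposited table. All 3 genes matching ABI5 itself fell, with log2 fold changes from -6.28 to -4.08 in the authors' deposited table. They were named after their values were seen. Their means were 7.23 against 560 in doubled haploid leaves (evm.TU.BraA05001987), 1.34 against 52.7 (evm.TU.BraA05001991) and 0.360 against 6.10 (evm.TU.BraA04002806). The autotetraploid levels thus rest on few reads, and these folds are uncertain in size. Response genes of the dehydrin and late embryogenesis kind, known to be induced by the hormone or by drought and cold, fell in 7 of 9 cases with a median of -1.30. In the authors' deposited table dehydrin ERD14 (evm.TU.BraA07003914) fell from 25480 to 5634, while a gene like Lea5 (evm.TU.BraA10002852) rose from 845 to 11035.

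**Figure D4:**
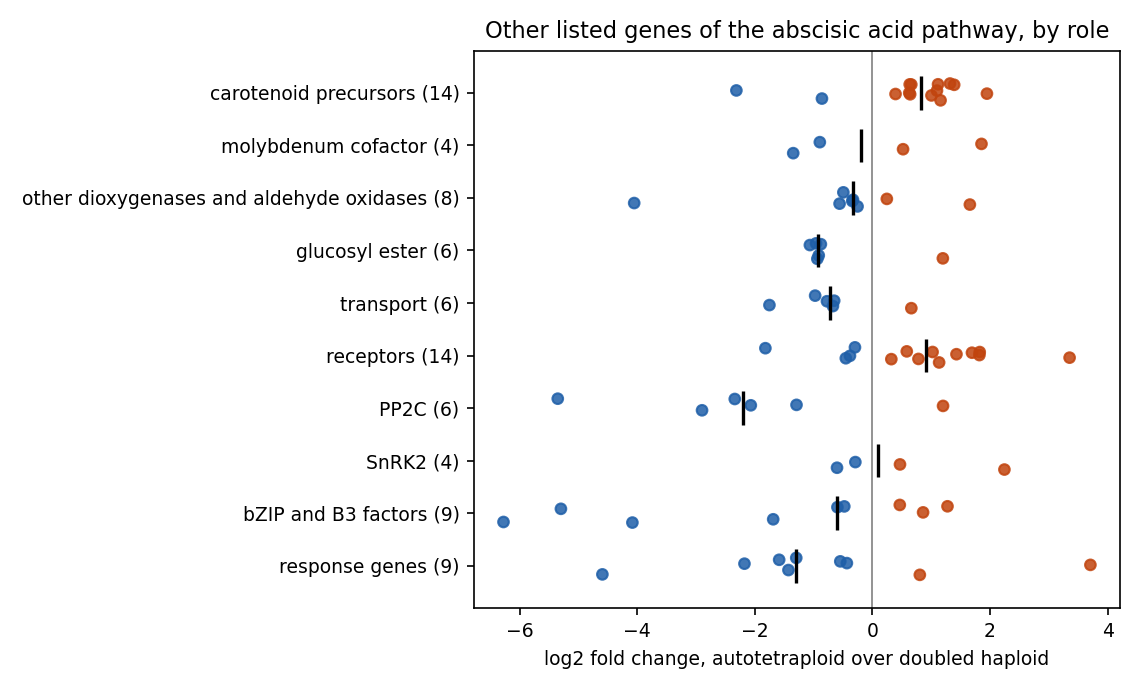
Log2 fold change (autotetraploid over doubled haploid) of the 80 other listed genes of the pathway by role, with the number of genes in brackets and the median as a black line (red points higher, blue points lower in autotetraploid leaves). Genes of the carotenoid precursor list and receptor genes lie mostly to the right of 0, with medians of 0.83 and 0.90. Phosphatase and response genes lie mostly to the left, with medians of -2.21 and -1.30.

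Markers of cell types and of leaf ageing also differed between the groups. The leaf mesophyll list held 57 listed genes, such as those for the Rubisco small chain and chlorophyll-binding proteins. Their sum was large, as the labelled tissue implies, at 1365554 normalised reads in autotetraploid and 811219 in doubled haploid leaves. Of the 57 genes, 43 were higher and 14 lower. The list also took in mitochondrial carbonic anhydrases by name, so these are not counts of mesophyll markers alone. Of 15 listed phloem and vascular genes 14 were lower, with sums of 5957 and 14392. Most of the 15 had 1 protein, the Myb factor APL, as their best hit. How close these matches are was not examined, so they may not all be markers of phloem. In the authors' deposited table the log2 fold changes of the 15 genes ran from -4.00 to 0.73, with a median of -1.13. The 5 guard cell genes summed to 651 in both groups, 2 higher and 3 lower. Of 16 listed genes named for senescence or chlorophyll breakdown 9 were lower, with sums of 18690 and 33130, and log2 fold changes from -9.95 to 2.52 in the authors' deposited table. Of the 4 genes with SAG12 of senescing leaves as best hit, evm.TU.BraA06000198 fell from 4804 to 4.86 and the other 3 rose, to at most 81.4 (evm.TU.BraA06003852), in the authors' deposited table. Flower and pollen genes were lower in 7 of 8 cases, with sums of 999 and 1872, root genes were split 2 and 2, and 1 seed gene was listed. All these lists were fixed by name, and some of their genes may not be particular to the cell type or tissue. None of these markers was listed at 0 in either group. Their part in the changes of the abscisic acid enzyme genes was not tested.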

How the data were processed

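RNA of 6 leaf libraries, 3 per group, was sequenced from kits for which the labels state no strand marking. The submitters' processing notes name TopHat2 (2.0.12), Bowtie2 (2.2.3), DESeq (1.18.0) and HTSeq (0.6.1). A genome build is not given in the sources used here. FPKM is the labels' word, yet per the file headers the deposited signal is a read count, and by its values 1 mean of size-normalised counts per group. The deposited log2 value is that of the autotetraploid mean over the doubled haploid one. Each deposited p-value and adjusted p comes from a test the authors ran, and adjusted values of 0.05 or more are not in the file. Library totals are therefore unknown.

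The planned fit on values per library was replaced by the authors' calls, since the table holds group means. Reads per library were worked back from 10-digit means. Size factors ran from 0.926 to 1.01 (autotetraploid) and 0.917 to 1.12 (doubled haploid). Under a mean of 100, 3385 of 3385 and 3280 of 3280 values had exactly 1 solution, and of 500 values per group moved at random 0% had any. Genes with 1 solution in both groups, searched up to 200 and 500, numbered 3832 and entered limma 3.58.1 in R 4.3.3. Both steps were tested on simulated data, the working back for means under 100 only. Sets of reads given above for higher means were not covered by that simulation. Counting intervals cover counting error only. Other software was SciPy 1.17.1, NumPy 2.4.6, pandas 2.3.3 and matplotlib 3.10.9 under Python 3.11.15.

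All 16 enzyme genes are named. Of each other role, the gene with the smallest adjusted p in each direction is named. The members and lists were chosen with earlier results of these data known. Whether replicates came from separate plants is as the submitters state. None of the identifiers matched the reference gene table, so no sequences are printed. Alternatives covered p limits, minimum means, fold limits, hits and left-out genes or libraries.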

Additional observations from a re-analysis of the deposited data

How the results depend on the processing

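No single value changed direction among 109 alternative values, which says little of stability. Counts of genes among these have no direction to change, and the fold changes came from genes already called on the same libraries. Ratios of means with a library left out were not formed where a mean became 0. At a change of at least 2-fold, 4 of the 7 higher enzyme genes were counted, and 21 higher and 20 lower of the other pathway genes. With 1 gene per protein hit, 6 higher and 4 lower enzyme genes were counted in place of 7 and 9, so that the higher ones were then the more numerous, since the 3 NCED3 genes and the 3 CYP707A3 genes each count once and the ABA2 hit with the smaller adjusted p rose, and the other pathway genes numbered 23 higher and 29 lower. With hits of an E-value of at most 1e-50, chosen after seeing the data, 4 higher and 9 lower enzyme genes remained, as the weaker ZEP and ABA2 hits dropped out. With limma, 4 to 4 of the enzyme genes with values per library were called when each library was left out in turn, which says little of stability, since 99.9% of all genes in that fit passed. The adjusted p ranged up to 0.000303 for the NCED3 gene, 0.000748 and 0.000471 for the BGLU18 genes on A05 and A06 and 0.0067 for CYP707A4, which a minimum mean of 5 left out. The sizes of the low genes moved with the pseudocount: between 0.5 and 5 the log2 fold change went from -3.20 to -1.15 for CYP707A4, from 3.25 to 1.87 for BGLU18 on A05 and from 6.07 to 3.44 for BGLU18 on A06. A floor for genes at 0 was not needed, since no member was listed at 0. A count model was not run, as whole reads were had for part of the table only. No paired analysis was possible because the libraries worked back from the means carry no replicate number. Depth limits the changes of BGLU18 and CYP707A4, whose lower groups held 2 to 5 reads.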

Other observations

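The enzyme genes lay on 7 chromosome codes. All 3 on A03 (1 NCED3 and 2 CYP707A genes) were lower in autotetraploid leaves, where 55.4% of the 1821 listed genes of that code were higher. Both on A04 (CYP707A2 and a weak ZEP hit) were higher, beside 56.8% of 833 listed genes. The NCED3 gene on A01 was lower, as were most listed genes of that code, of which 27.9% were higher. On A06, 1 gene was higher and 3 were lower, beside 52.2% higher among 1353 listed genes.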
